A study of Gallus gallus with 6 samples.

Results

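The genes described here were the 8 genes of 19152 in the count table whose name begins with KIF followed by a digit or a C: KIF11, KIF15, KIFC1, KIF2C, KIF18B, KIF4A, KIF23 and KIF24. RNA was sequenced from the magnum, the egg-white secreting segment of the oviduct, of 3 laying and 3 non-laying Hy-line hens, with 1 library per hen. Laying hens, aged 35 weeks, were sampled 3 h after ovulation, when the egg lay in the magnum. The non-laying hens were aged 35 to 60 weeks, came from different flocks and had an atrophied oviduct without follicle growth in the ovary. All hens were kept in individual pens, and the labels list no treatment for either group. Age, flock and laying state therefore cannot be told apart.

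Names could be paired with identifiers only for genes that the authors had listed as differing between these same hens, at more than 3-fold with an adjusted p under 0.05. The 8 genes were thus chosen by the contrast that is described below, and their differences between laying and non-laying hens are given as a description, without a test. The reference table of RefSeq for the chicken assembly GRCg7b holds 39 genes with a KIF symbol. All 8 genes matched it, KIF4A through a synonym of the gene now listed as KIF4B, and the other 31, among them the transport motors KIF3A and KIF5B and the mitotic motors KIF18A, KIF20A and KIF14, were not analysed here. CENPE, the kinetochore kinesin, does not carry a KIF name and is shown beside the 8 genes as another kinesin with an identifier.

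Kinesins are motor proteins that burn ATP to move along microtubules or to shorten them. Some carry cargo through the cytoplasm, whereas a large branch of the family builds the mitotic spindle, aligns and separates the chromosomes and closes the division between daughter cells. These mitotic members are made mainly by dividing cells, and a few kinesins act at the centriole and the cilium instead. In the magnum, tubular gland cells multiply while the oviduct grows under estrogen and secrete egg white once the hen lays.

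Counts per library summed to between 24948527 and 25763750 in laying hens and between 18840068 and 24917234 in non-laying hens. Levels are given as CPM, counts for every 1000000 reads of a library whose size was scaled by TMM (trimmed mean of M-values), with factors from 0.4449 to 0.6216 in laying hens and from 1.192 to 2.94 in non-laying hens. A gene at 3 counts, about the 1-sided 95% upper limit of counting error for a count of 0, has between 0.0542 and 0.269 CPM in these libraries. Avidin (AVD), the only 1 of 7 listed egg-white marker genes with an identifier, had 838 to 2000.2 CPM in laying against 2.26 to 3.03 CPM in non-laying hens. Its identifier came from the authors' list of differing genes. That choice fixes that AVD differs by more than 3-fold, though not the direction of the gap or its size beyond that. AVD thus cannot serve as an independent check of the tissue label.

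All 8 kinesin genes were lower in the magnum of laying hens, and for all 8 every laying hen was below every non-laying hen. In all tested genes, 17.6% showed that separation in the same direction, and 83.0% did in counts over the library total without scaling, where the 8 genes were separated as well. The fold of the means fitted by edgeR ran from 3.83 for KIF24 to 36.7 for KIF15, and the median log2 fold change was -4.05, against 0.00 over the 12499 genes tested. In edgeR all 8 differed more than 3-fold at an adjusted p (Benjamini-Hochberg) under 0.05, as did 3.70% of all tested genes in this direction, which the choice of the genes fixes. Summed over the 8 genes, the level was 10.2, 8.37 and 13.4 CPM in laying hens 1, 2 and 3 and 161, 251 and 66.2 CPM in non-laying hens 1, 2 and 3. In bulk tissue, fewer dividing cells and less RNA in each of them cannot be told apart.

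The number of calls fell for all genes when laying hen 1 or 2 was left out. Without the former, 0 of the 8 genes passed both thresholds, at 20 genes called in all instead of 623, and the median log2 fold change of the 8 was -3.88. Without the latter, again 0 passed, at 16 genes called in all, and the median was -3.93. Without laying hen 3 or without non-laying hen 1, 7 passed, KIF11 being the exception, and the 8 genes were lower in laying hens in each of these fits.

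**Figure D1:**
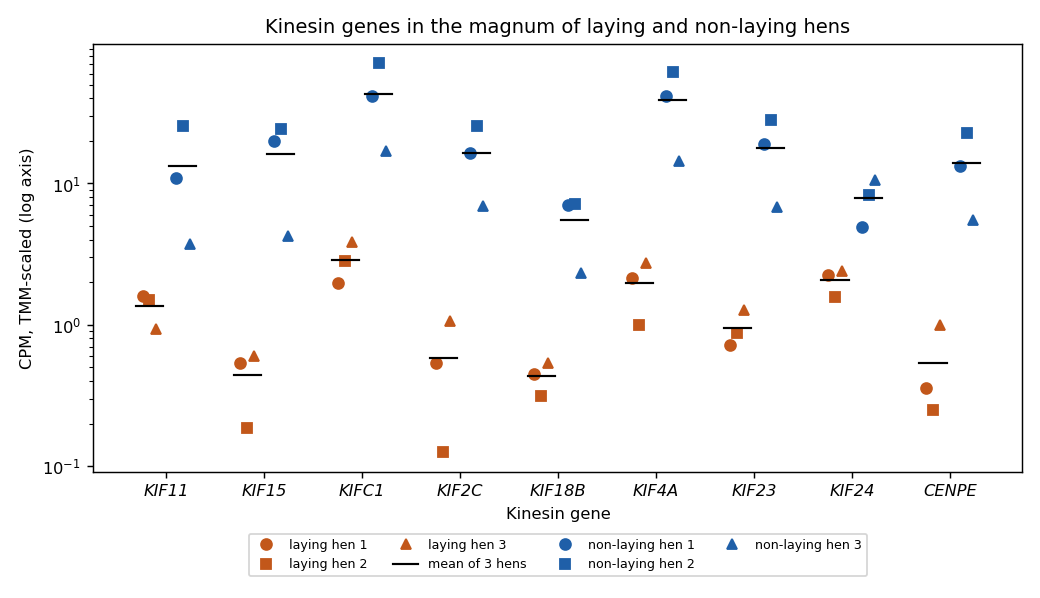
TMM-scaled CPM on a log axis for the 8 kinesin genes and CENPE in each hen; symbols mark the hen, colours the group and black bars the mean of 3 hens. For each gene the laying hens lie below the non-laying hens; non-laying hen 3 (triangle) is the lowest non-laying hen for all but KIF24, where it is the highest at 10.6 CPM.

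The motors that set up the bipolar spindle are KIF11, KIF15 and KIFC1. KIF11 (ENSGALG00000030597; chromosome 6, 20718576 to 20734605 in Galgal 5.0, as are all positions here) forms tetramers that slide antiparallel microtubules and push the spindle poles apart. Laying hens 1, 2 and 3 had 18, 24 and 14 counts of it, and non-laying hens 1, 2 and 3 had 426, 752 and 205. In CPM these were 1.61, 1.50 and 0.936 against 10.9, 25.3 and 3.70. KIF11 had the smallest fold of these spindle motors, -3.30 on the log2 scale (standard error 0.68), and the widest relative spread among the non-laying hens, with an SD of 82.7% of their mean of 13.3 CPM (n = 3). It was also the only 1 of the 8 genes that was lowest in laying hen 3.

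KIF15 (ENSGALG00000036645; chromosome 2, 43344133 to 43378973) backs up KIF11 in keeping the poles apart and is brought to the spindle by TPX2. It had the largest fold of the 8 genes in the edgeR run reported here. Without laying hen 3 KIF2C exceeded it, at -5.72 against -5.54 on the log2 scale. Laying hens 1, 2 and 3 had 6, 3 and 9 counts, or 0.538, 0.187 and 0.601 CPM. Non-laying hens 1, 2 and 3 had 779, 715 and 235 counts, or 19.9, 24.1 and 4.24 CPM. The log2 fold change was -5.20 (standard error 0.76). At 3 counts, the exact 95% Poisson interval of laying hen 2 runs from 0.619 to 8.77 counts and overlaps those of the other laying hens, so their order was not detectable at this depth. Such intervals cover counting error only and leave out the variation between hens. Where PCR copies of a molecule are counted as separate reads, they are too narrow for counting error as well.

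KIFC1 (ENSGALG00000039964; chromosome 16, 239436 to 311548) walks to the minus ends of microtubules and gathers them into the poles. It had the highest RPKM (reads per kilobase and per 1000000 reads) of the 8 genes in each of the 6 hens. The values were 0.441, 0.864 and 1.15 in laying hens 1, 2 and 3 against 35.9, 42.3 and 25.4 in the non-laying group. That rank rests on the length behind its RPKM, 1982 to 2021 bases against a listed exon length of 4591. In counts, KIF24 (25) and KIF4A (24) exceeded KIFC1 (22) in laying hen 1. In non-laying hen 1, KIF4A (1628) exceeded KIFC1 (1625). Its scaled level was 2.89 ± 0.954 CPM (SD, n = 3) in the laying group and 43.1 ± 26.9 CPM (SD, n = 3) in the other, and the log2 fold change was -3.89 (standard error 0.54). Counts of KIFC1 were not whole, within 1e-09, in 3 libraries, the only such case among the 8 genes, as happens when reads are divided between genes, so its level is uncertain.

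KIF2C and KIF18B shorten microtubules from their ends, KIF2C at the kinetochore, where it frees wrong attachments, and KIF18B at the astral microtubules. KIF2C (ENSGALG00000010120; chromosome 8, 20815604 to 20831192) had 6, 2 and 16 counts in the laying group, by hen number, against 644, 757 and 385 in the non-laying group. Its log2 fold change of -4.82 (standard error 0.72) was next to that of KIF15 in size, and the laying hens spread more in KIF2C than in any other of the 8 genes, with an SD of 82.0% of their mean. The interval of laying hen 2 at 2 counts (exact Poisson, 0.242 to 7.22) did not reach that of laying hen 3 at 16 counts, which began at 9.15.

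KIF18B (ENSGALG00000031553; chromosome 27, 1471055 to 1478984) had 277, 214 and 128 counts in the non-laying group, by hen number, and 5, 5 and 8 in the laying group. Summed over hens its 619 counts were the fewest of the 8 genes in the non-laying group, although KIF24 had fewer in non-laying hen 1, and its 18 tied with KIF15 for the fewest in the laying group. The mean level was 0.432 ± 0.112 CPM (SD, n = 3) in the laying and 5.53 ± 2.79 CPM (SD, n = 3) in the non-laying group, and the log2 fold change was -3.67 (standard error 0.58).

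KIF4A and KIF23 work late in mitosis, when the spindle midzone and then the midbody form. KIF4A (ENSGALG00000004195; chromosome 4, 1283433 to 1300499) binds chromosome arms and, with PRC1, sets the length of midzone microtubules. Laying hens 1, 2 and 3 had 24, 16 and 41 counts, and non-laying hens 1, 2 and 3 had 1628, 1830 and 803. The log2 fold change of KIF4A was -4.33 (standard error 0.60). Per length it ranked next to KIFC1 in all 3 non-laying hens, at 16.2, 16.6 and 9.64 RPKM.

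KIF23 (ENSGALG00000008095; chromosome 10, 19360374 to 19378165) joins RACGAP1 in the centralspindlin complex, which directs the cleavage furrow. The laying group had 8, 14 and 19 counts by hen number, against 741, 838 and 376 in the non-laying group. The log2 fold change was -4.21 (standard error 0.57), close to that of KIF4A, and the standard errors of both overlap. CENPE (ENSGALG00000013208; chromosome 4, 61379847 to 61415721), which carries chromosomes to the spindle equator, had 4, 4 and 15 counts in the laying group against 519, 677 and 305 in the non-laying group, with a log2 change of -4.66 (standard error 0.69). It was chosen by the same contrast and by its place in the authors' printed list.

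KIF24 (ENSGALG00000005806; chromosome Z, 7583409 to 7608241) stood apart from the other 7 genes. It belongs to the same subfamily as KIF2C, but in human cells it sits at the centriole, where it trims microtubules and holds back the growth of a cilium. Laying hens 1, 2 and 3 had 25, 25 and 36 counts, or 2.24, 1.56 and 2.41 CPM. Non-laying hens 1, 2 and 3 had 191, 244 and 588 counts, or 4.88, 8.22 and 10.6 CPM. Its log2 fold change of -1.94 (standard error 0.39) was the smallest of the 8 genes and the closest to the fold threshold of 3, at 3.83-fold, with KIF11 next at 9.86-fold. Kinesins just outside the threshold were not analysed here. On total counts without TMM the log2 fold change of KIF24 was -3.85, where the median of all genes shifted to -1.80, and KIF24 again had the smallest of the 8.

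KIF24 also differed from the other genes in the order of the non-laying hens. In 7 of the 8 genes non-laying hen 3 was the lowest of the non-laying hens and non-laying hen 2 the highest, and for KIF24 non-laying hen 3 was the highest. Non-laying hen 3 lay below the mean of non-laying hens 1 and 2 on the log2 scale in those 7 genes, by a difference from -2.35 for KIF15 to -1.55 for KIF2C, and above it by 0.74 for KIF24. Over all tested genes the median of this quantity was 0.03, with quartiles of -0.44 and 0.58, and non-laying hen 3 was the lowest non-laying hen for 41.4% and the highest for 42.7%. The lowest place of non-laying hen 3 did not depend on TMM for the 7 genes. In counts over the library total without scaling, where non-laying hen 3 was lowest for 5.57% of the tested genes and highest for 86.0%, the same number of the 8 genes, 7, were lowest in it. KIF24 was highest in it on that scale too, at 31.2 against 8.41 and 9.79. The highest place of non-laying hen 2 did depend on TMM for KIF15 and KIF18B. Without scaling, non-laying hen 1 exceeded non-laying hen 2 in both, at 34.3 against 28.7 for KIF15 and 12.2 against 8.59 for KIF18B.

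A share within a library does not depend on any scaling between libraries. KIF24 made up 21.9%, 18.7% and 17.9% of the counts of the 8 genes in laying hens 1, 2 and 3. In non-laying hens 1, 2 and 3 it made up 3.03%, 3.27% and 16.0%. The 95% Wilson intervals of non-laying hens 1 and 2 were 2.63% to 3.48% and 2.89% to 3.70%, and that of non-laying hen 3 was 14.9% to 17.3%. Non-laying hen 3 thus had a KIF24 share outside the counting error of the other non-laying hens and inside the interval of laying hen 3, 13.2% to 23.8%. For every 100 counts of the other 7 genes there were 28.1, 22.9 and 21.8 of KIF24 in the laying hens and 3.12, 3.39 and 19.1 in the non-laying hens.

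Divided by length, KIFC1 and KIF2C kept similar shares of the 8 genes in the 3 non-laying hens. KIFC1 took 35.9%, 38.5% and 37.1% of the summed RPKM in non-laying hens 1, 2 and 3, and KIF2C took 12.9%, 12.5% and 13.5%. KIF4A, KIF23 and KIF18B differed between the 3 non-laying hens by less than 3 percentage points each. For KIF18B, at 3.89%, 2.49% and 3.17%, the difference was large against its small share. In percentage points KIF15 and KIF11 differed more, KIF15 at 8.15%, 6.21% and 4.34% and KIF11 at 7.03%, 8.89% and 5.18%. In laying hens, where 114, 134 and 201 counts in all fell on the 8 genes, KIFC1 took 29.3%, 45.5% and 41.0%. Its mean share was 38.6% ± 8.34 (SD, n = 3) in the laying and 37.2% ± 1.34 (SD, n = 3) in the non-laying group, a difference smaller than the spread of the laying hens. The mean share of KIF24 was 13.6% ± 2.03 (SD, n = 3) in the laying and 5.10% ± 5.19 (SD, n = 3) in the non-laying group, and that of KIF15 was 2.76% ± 1.19 (SD, n = 3) and 6.23% ± 1.90 (SD, n = 3). The hens of the groups did not overlap in either share. Without non-laying hen 3 the mean share of KIF24 in the non-laying group was 2.11%.

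**Figure D2:**
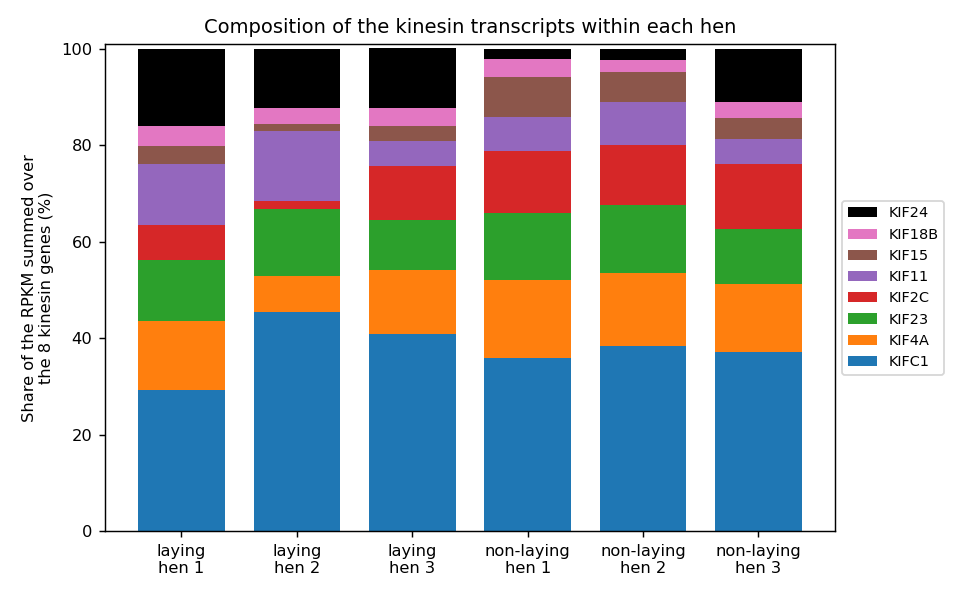
Stacked bars, 1 for each hen, give each gene's share in percent of the RPKM summed over the 8 kinesin genes. KIFC1 is the largest segment in each hen, a rank that rests on the length used for its RPKM. The black segment of KIF24 is thin in non-laying hens 1 and 2 (2.05% and 2.17%). It is thicker in non-laying hen 3 (11.1%) and the laying hens (12.3% to 15.9%).

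Markers of the cell types that the tissue could hold were read beside these results, as far as an identifier was paired with them. These identifiers came only from the authors' list of differing genes, so markers without a difference could not appear. That the groups differ in the markers below was thus fixed by that choice, and the gaps do not measure the share of a cell type. Of 6 markers of proliferating cells 3 had one, TOP2A, CDK1 and CCNA2, and their summed level was 11.6 to 16.1 CPM in laying hens and 40.7 to 196 CPM in non-laying hens, lowest in non-laying hen 3. CCNA2, at -2.26 on the log2 scale (standard error 0.62), did not pass both thresholds in the edgeR run reported here. It had 3.47 CPM in non-laying hen 3 and 3.32 CPM in laying hen 1. Of 7 markers of ciliated epithelium 2 had one, DNAAF1 and CCDC39, which serve the assembly of motile cilia, with 5.92 to 14.6 CPM against 30.6 to 63.2 CPM. The leukocyte marker PTPRC, 1 of 6 on its list, had 3.68 to 5.75 CPM against 12.1 to 34.1 CPM. The fibroblast markers COL3A1 and LUM, 2 of 5, summed to 254 to 279 CPM against 1032 to 2046 CPM. None of these markers was at 0 in any hen, and none of the lists for smooth muscle, endothelium and erythroid cells had a paired marker.

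Across the non-laying hens the markers moved apart. DNAAF1 had 12.5, 16.7 and 30.1 CPM and PTPRC 12.1, 14.1 and 34.1 CPM in non-laying hens 1, 2 and 3, both highest in non-laying hen 3 like KIF24. TOP2A, which untangles DNA before division, had 84.0, 116 and 22.1 CPM, lowest in non-laying hen 3 like the other 7 kinesins. Of the other markers, after TMM, CCDC39 and AVD were highest in non-laying hen 3, and CDK1, CCNA2 and COL3A1 were lowest in it. For LUM it lay between the other non-laying hens, so the fibroblast markers differed from each other. Both fibroblast places depended on TMM. In RPKM, without TMM, COL3A1 had 863, 355 and 706 in non-laying hens 1, 2 and 3, and LUM had 74.4, 34.2 and 115. The other markers named here kept the place of non-laying hen 3 in RPKM. Over all tested genes, non-laying hen 3 was the highest non-laying hen for 42.7% and the lowest for 41.4% after TMM. In counts over the library total without scaling it was the highest for 86.0% and the lowest for 5.57%. The part of these cell types in the kinesin levels was not tested.

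Partners and regulators of kinesins were taken as a list of 36 genes, of which 21 had an identifier, again only through the authors' tables of differing genes. All 21 had every laying hen below every non-laying hen, against 17.6% of all tested genes. In edgeR 20 passed both thresholds, against 3.70% of all tested genes in this direction. The 21 were chosen by this same contrast, which favours such counts, so these are a description. Their median log2 fold change was -4.65, or -4.42 with ECT2 and SHCBP1, which had 3 counts or fewer in every laying hen, at their lower bound. After TMM non-laying hen 3 was the lowest non-laying hen in all 21, against 41.4% of all tested genes. Its log2 difference from the mean of non-laying hens 1 and 2 ran from -2.74 for HMMR to -0.45 for CIT. In counts over the library total without scaling, non-laying hen 3 was the lowest for 14 of the 21. It was the highest for 4 (CIT, CENPF, NUF2 and STMN1) and between the others for 3 (NEK2, BUB1 and BUB1B). Over all tested genes it was the lowest for 5.57% and the highest for 86.0% on that scale. The kinesin light chains, KIFAP3 of the transport motor and CCP110 and CEP97, which bind KIF24 at the centriole in human cells, were among the 15 with no identifier paired here.

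At the midbody, RACGAP1 (ENSGALG00000033231), the partner of KIF23, had 4, 5 and 7 counts in the laying group against 642, 702 and 464 in the non-laying group, and its log2 fold change was -5.39 (standard error 0.50). ECT2 (ENSGALG00000009157), the exchange factor that RACGAP1 activates for furrowing, had 0, 2 and 2 counts against 358, 498 and 195, or at least 44.8-fold higher in non-laying hens with 3 counts set for each laying library. PRC1 (ENSGALG00000012836), the microtubule bundler that KIF4A binds, had 45.0, 46.4 and 147 counts against 975, 1334 and 613. At -2.27 on the log2 scale (standard error 0.59) it was the only 1 of the 21 that did not pass in the edgeR run reported here. All 21 passed with DESeq2, on total counts without scaling, with all genes of at least 1 count and with limma on log2(RPKM + 0.1). PRC1 counts were fractional in all 6 libraries, so its level is uncertain too.

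At the spindle, TPX2 (ENSGALG00000006267), which recruits KIF15 and activates the kinase AURKA, had 19, 17 and 37 counts in the laying group against 1084, 1559 and 691 in the non-laying group. Its log2 fold change was -4.14 (standard error 0.58), as was that of AURKA at -4.14 (standard error 0.61). PLK1 (ENSGALG00000006110), a kinase that controls several mitotic kinesins, was at -5.65 (standard error 0.72). NEK2 (ENSGALG00000009854), a kinase reported to act on KIF24 in human cells, had 2, 2 and 8 counts against 341, 467 and 338. Its level in non-laying hens 1, 2 and 3 was 8.72, 15.7 and 6.10 CPM after TMM, and 15.0, 18.7 and 17.9 counts per 1000000 without scaling, so its lowest non-laying hen changed with the scaling.

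**Figure D3:**
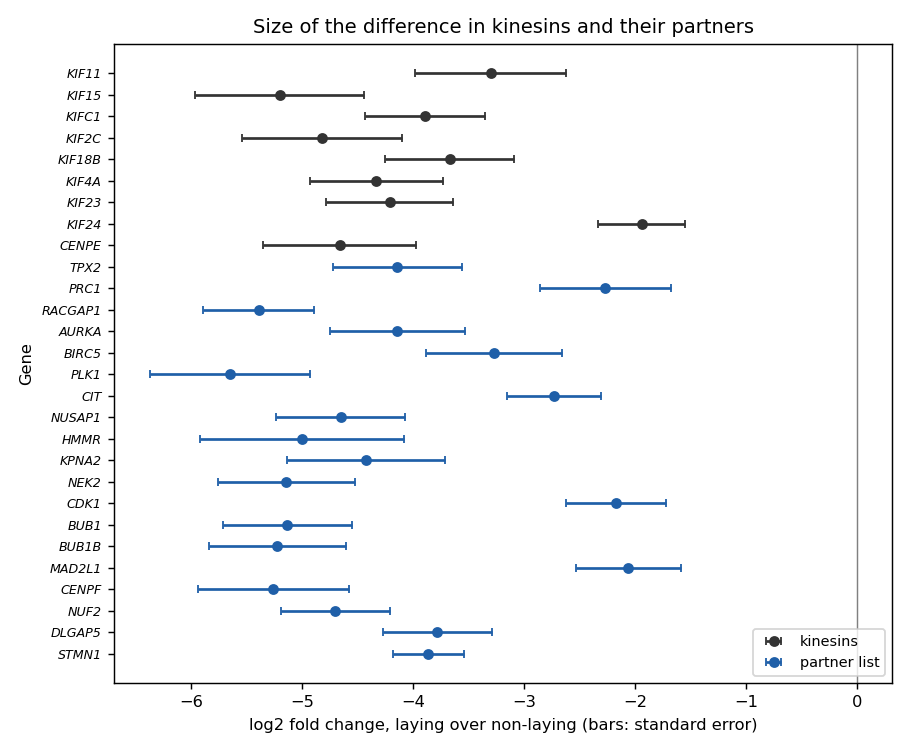
Log2 fold change of laying over non-laying hens from edgeR, with standard errors as bars, for the 8 kinesin genes with CENPE (black) and for the partner list (blue; ECT2 and SHCBP1 are left out because only a bound can be given). All lie below 0, KIF24 at -1.94 being the nearest to 0 among the kinesins.

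Ratios between a kinesin and its partner within the same hen were compared for pairs picked after their values were seen. The RPKM of KIF23 over that of RACGAP1 was 1.67, 2.42 and 1.93 in laying hens 1, 2 and 3. It was 1.04, 1.19 and 0.643 in the non-laying group, so this ratio of RPKM was higher in each laying hen. The length behind the RPKM of KIF23 differed between hens, which enters the ratio. It was 1703, 2063 and 2630 bases in the laying and 2348, 2181 and 2541 in the non-laying group, against a listed 3734. KIF4A over PRC1 went the other way, at 0.206, 0.117 and 0.0980 against 0.554, 0.452 and 0.436, with the uncertain level of PRC1 in both. KIF15 over TPX2 was 0.194, 0.0890 and 0.151 against 0.410, 0.274 and 0.192, and here laying hen 1 overlapped non-laying hen 3. KIF11 over TPX2 was 0.647, 0.892 and 0.259 against 0.354, 0.392 and 0.229, and the groups overlapped. In each laying hen the ratios to RACGAP1 and of KIF15 rest on 3 to 9 counts of RACGAP1 or KIF15.

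**Figure D4:**
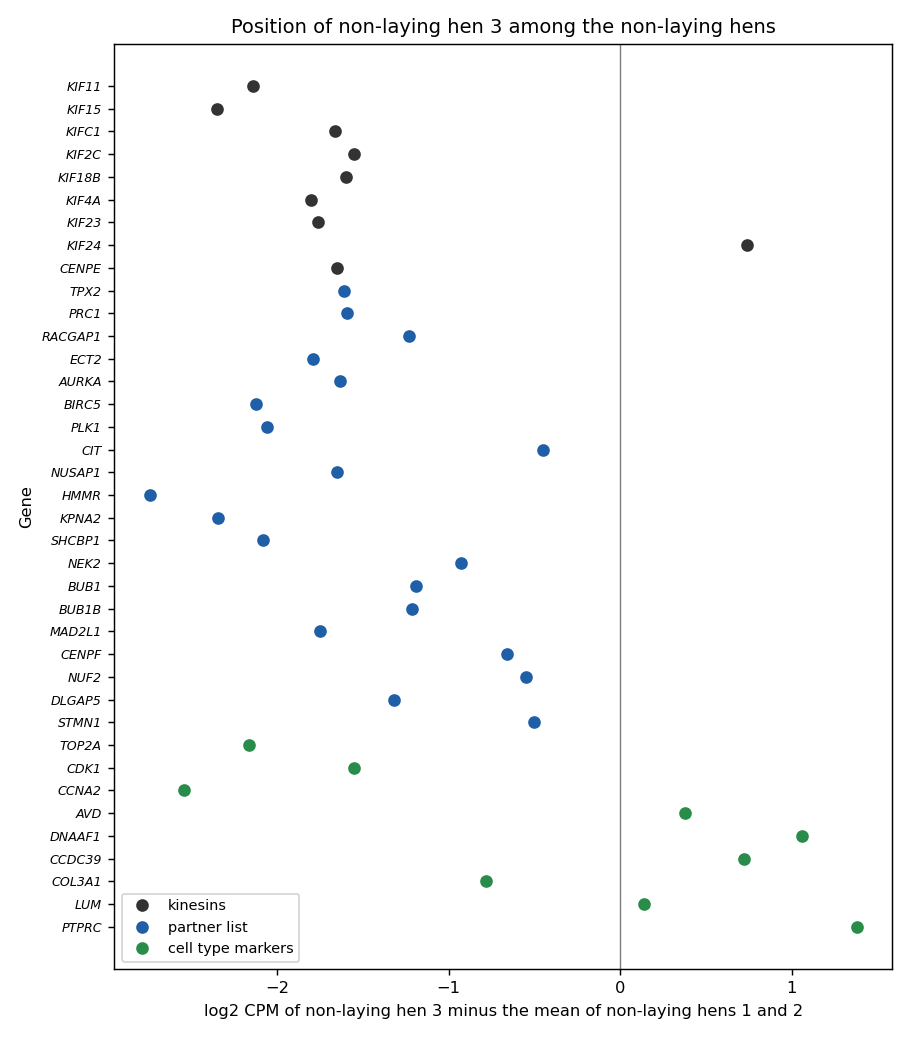
For each gene, the log2 CPM of non-laying hen 3 minus the mean of non-laying hens 1 and 2; kinesins are black, the partner list blue and cell type markers green. KIF24 (0.74) lies to the right of 0, as do the markers DNAAF1, CCDC39, PTPRC, AVD and LUM. The other 7 kinesins lie between -2.35 and -1.55 and the partners between -2.74 and -0.45 on this TMM scale, although without scaling 4 partners were highest in non-laying hen 3.

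Over the 6 libraries the 7 genes other than KIF24 followed each other closely, with Pearson's r of log2 CPM between 0.882 and 0.999 in their 21 pairs, against 0.728 to 0.883 for the 7 pairs with KIF24. These are descriptions over 6 points that share the difference between the groups and the scaling of the libraries. The named genes outside the kinesins with the profile most like the mean of the 8 genes were AURKA (r = 0.999), TPX2 (0.998), DLGAP5 (0.998), GTSE1 (0.997) and NCAPG (0.997). They were also the first 5 of all 12499 tested genes, and 193 genes in all had an r over 0.95.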

How the data were processed

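Single-end reads of 76 bp from stranded mRNA libraries were cleaned by the authors (Prinseq) and mapped in Array Studio to Galgal 5.0 with the genes of Ensembl release 94. Estimated counts (expected counts) were deposited by the authors without normalization. RPKM values were deposited beside them, computed by the authors per kilobase, and whether counting used the strand is not given in the sources used here. The deposited table of differing genes holds the authors' DESeq2 fold changes and p-values, which were not used. It gave names, positions and exon lengths, and the supplementary list of the study gave further names. KIF4A, CENPE, ECT2 and STMN1 were paired through the printed list of the most lowered genes.

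Counts were rounded, filtered by filterByExpr (12499 genes left), scaled by TMM and compared in R 4.3.3 with the quasi-likelihood test of edgeR 4.0.16 (glmQLFit, glmQLFTest), which was two-sided, had no covariates and was tested on simulated data. Standard errors are the log2 fold change over the root of the F statistic. Log2 CPM had a prior count of 2. DESeq2 1.42.0, limma 3.58.1, other scalings, filters and thresholds and each hen left out were alternatives. Python 3.11.15 with scipy 1.17.1 and matplotlib 3.10.9 gave intervals and figures.

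The genes and lists were chosen with earlier results of these data known. Named were all members, CENPE, set members of the partner list and the 5 named genes most like the members' mean profile. NEK2, CIT, HMMR, CENPF, NUF2, STMN1, BUB1 and BUB1B, the ratios and the order of hens without scaling were chosen after their values were seen. No kinesin sequence was used here.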

Additional observations from a re-analysis of the deposited data

How the results depend on the processing

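All 8 kinesin genes were lower in laying hens in every alternative run. KIF15 had the largest fold of the 8 in these runs, except without laying hen 3 and with limma on RPKM. KIF2C had it without laying hen 3 and with limma on log2(RPKM + 0.1), and KIFC1 with limma on log2(RPKM + 1). All 8 passed both thresholds in each alternative that kept all 6 hens, except with the replicate number as a block, where 7 did, KIF24 being the exception. That replicate block also lowered the count over all genes from 623 to 397. Same-numbered hens did not deviate together over the tested genes (correlations of 0.18, -0.07 and 0.03), so the numbers are not taken as pairs. With each hen left out in turn, 0 to 8 of the 8 genes, 2 to 21 of the 21 paired partners and 16 to 639 of all genes passed, the lowest counts being those without laying hen 1 or 2. The median log2 fold change of the 8 genes was -5.55 on total counts without scaling, where the median of all genes shifted to -1.80, and -3.01 and -5.15 with limma on log2(RPKM + 1) and log2(RPKM + 0.1), at medians of -1.35 and -1.67 over all genes. Over all genes, 7896 passed without scaling, 3845 and 7040 with limma on RPKM, 966 with DESeq2 and 939 without a fold threshold. Counts in place of RPKM gave KIFC1 a mean share of 27.2% in laying and 26.6% in non-laying hens and KIF24 19.5% in laying hens. Without KIFC1 the share of KIF24 in laying hens was 22.1%. Kinesins outside the 8 genes and CENPE could not be paired with identifiers, so that comparison and the search of promoters and proteins for motifs were not run. Low counts limit the laying hens, in which single genes had 2 to 58 counts at library totals above those of the non-laying hens.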

Other observations

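The named genes with the profile most like that of KIF24 over the 6 libraries, sought after its values were seen, were EFCAB11 (Pearson's r = 0.994), CCKBR (0.982), IL12RB2 (0.980), PPP1R36 (0.980) and FSIP1 (0.979). They ranked 4, 15, 19, 21 and 23 of all tested genes, of which 129 had an r over 0.95. All 5 were highest in non-laying hen 3 and lower in every laying hen, which their choice by likeness to KIF24 brings with it. In the laying hens IL12RB2 (0.0624 to 0.134 CPM) lay under the level of 3 counts, and PPP1R36 (0.179 to 0.267 CPM) lay near it. FSIP1 had 0.807, 0.437 and 0.869 CPM in laying hens 1, 2 and 3, against 5.55, 7.88 and 9.35 CPM in the non-laying group. Of the other 7 kinesins the nearest to KIF24 was KIF2C, at rank 641 of the tested genes with r = 0.883.

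The length behind each RPKM value, from the counts and the library total, equalled the listed exon length for KIF4A (4420 bases in each non-laying hen) and KIF18B (3137 bases), but not for others. For KIFC1 it was 1982 to 2021 bases in the 6 hens against a listed 4591. For KIF11 it was 3777, 3357 and 3828 bases in laying hens 1, 2 and 3, with 2668, 3094 and 3073 in the non-laying group and a listed 3901, on 14 to 24 counts in each laying hen. Of 257 named genes with at least 100 counts in every non-laying hen, 132 were within 1% of the listed length and 125 were shorter. Levels per length of such genes depend on which length was used.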
